A study of Homo sapiens with 4 samples.

Results

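Interferon-stimulated genes are genes whose transcription rises in cells that receive an interferon signal. A list of 49 of them, without the genes of antigen presentation, was followed in MIA-PaCa2 cells, an established human pancreatic cancer line. The members were chosen by symbol, with earlier results of these data known. All 49 symbols matched an Ensembl ID among the 57773 genes in the count files (RIGI under its older symbol DDX58). Of these, 45 had enough counts to be tested, among 16090 tested genes in all. The untreated group held 2 libraries of cells grown without drug. The resistant group held 2 libraries of cells kept for 2 months in rising doses of AMG510 (sotorasib, a targeted cancer drug), to a final 5 µM. Both groups were grown in DMEM with fetal calf serum, and the labels do not say whether drug was present when RNA was taken or whether replicates were cultured apart, so p-values measure only the spread between these libraries. For resistant replicate 2 the treatment tag names AMG511, while its title names AMG510, and it was grouped by its title.

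Interferons of type I and type III bind receptors at the cell surface and activate the kinases JAK1 and TYK2. These phosphorylate transcription factors such as STAT2, which joins IRF9, and the complex binds a DNA element, the interferon-stimulated response element, in front of their target genes. The products sense viral RNA, degrade it, block its translation, hold virus particles at membranes or tag proteins with ISG15. Some of these genes also have a basal level in the absence of interferon, and some tumour lines keep them raised for long periods.

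The response element described above was looked for first. Its core, the letters GAAA followed by any 2 bases and GAAA again, was searched on both strands from 250 bases before to 50 bases after the start of each gene in RefSeq promoters of GRCh38.p14, a build other than that of the counts. The table lists several promoters for some genes, and the first was taken for each member. Of 39 members with a promoter in that table, 27 (69.2%) held at least 1 match and 15 held 2 or more, against 3.57% of all 35116 promoters of the same length and 3.65% of the 27305 genes by their first promoter. Counting any listed promoter, 29 of the 39 held a match. The second letter pattern searched, TTCNNNGAA, that of the gamma-activated site, was in 10 of the 39 (25.6%) and in 7.66% of all promoters. In 4 members (IFITM1, BST2, IFI27 and EPSTI1) a match of the second pattern shared bases with a match of the first. Stretches upstream of the start are shown for members that were higher in resistant cells (ISG15, IFIT1, IFITM3, DDX60, BST2), for both whose resistant libraries were lower (IFIT5, LGALS3BP) and for IFI44L, which was at or near 0 counts. Each is read 5′ to 3′ on the gene's strand, with 1 match in capitals.
ISG15, chr1:1013370-1013419, plus strand: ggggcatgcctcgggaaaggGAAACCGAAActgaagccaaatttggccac
IFIT1, chr10:89392500-89392549, plus strand: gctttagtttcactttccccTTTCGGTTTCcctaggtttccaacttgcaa
IFITM3, chr11:320866-320915, minus strand: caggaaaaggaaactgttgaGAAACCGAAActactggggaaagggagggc
DDX60, chr4:168318776-168318825, minus strand: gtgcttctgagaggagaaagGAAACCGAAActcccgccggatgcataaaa
BST2, chr19:17405731-17405780, minus strand: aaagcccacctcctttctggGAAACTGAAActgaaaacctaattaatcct
IFIT5, chr10:89414503-89414552, plus strand: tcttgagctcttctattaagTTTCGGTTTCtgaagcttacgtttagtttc
LGALS3BP, chr17:78979952-78980001, minus strand: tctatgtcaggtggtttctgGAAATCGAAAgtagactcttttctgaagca
IFI44L, chr1:78620355-78620404, plus strand: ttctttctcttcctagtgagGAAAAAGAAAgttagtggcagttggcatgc
Among tested members 15 of the 25 with the element's core were called higher in resistant libraries (median log2 fold change 1.32), and 6 of the 10 without it were (median 1.43). The letters were present both in members with higher and in members with lower levels in resistant cells, and a match is a description, not a site in use. The 10 members without an entry were USP18, IFIT2, IFITM2, MX2, OAS2, OASL, DHX58, GBP2, TRIM22 and LAMP3.

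Libraries held 30146559 to 38052558 expected counts, and levels are given as CPM, counts scaled to library size with TMM factors (edgeR's cpm). With 0 counts the level could still reach 0.0801 to 0.104 CPM, depending on the library. Of the epithelial markers the keratins KRT8 (962 to 3091 CPM), KRT18 (957 to 2282 CPM) and KRT19 (133 to 260 CPM) were abundant. KRT7 was at 0.148 to 0.401 CPM, EPCAM at 1.33 to 2.09 CPM and CDH1 at 0.622 to 1.21 CPM. Of 5 markers of plasmacytoid dendritic cells, which make much interferon, LILRA4, IL3RA and GZMB were at 0 in all libraries and the 5 summed to at most 0.134 CPM. Of 7 leukocyte markers 4 stayed under 1 CPM, and CD14 and LYZ were called lower in resistant cells. These 7 summed to 21.6 and 30.6 CPM in untreated and to 36.4 and 11.8 CPM in resistant libraries, with CD68 (not called) at 9.37 to 33.8 CPM of it. The keratins KRT8 (-1.23, adjusted p = 0.0027) and KRT18 (-0.88, adjusted p = 0.0069) were called lower on the log2 scale. Of 5 fibroblast markers PDGFRB was called higher, with 0.0542 and 0.187 CPM in untreated and 5.07 and 2.16 CPM in resistant libraries, and the other 4 stayed under 1 CPM. Of 5 endothelial markers 4 matched an ID, of which 3 stayed under 1 CPM and CDH5 (not called) was at 0.711 to 8.12 CPM. The part of these markers in the results was not tested.

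Most of the interferon-stimulated genes were higher in resistant cells. Of the 45 tested members 27 (60%) rose, 1 fell (LGALS3BP) and 17 did not pass, by edgeR's quasi-likelihood test at an adjusted p below 0.05. Over all tested genes 16.6% were called higher and 17.4% lower, 34% in either direction. Counted over all 49 members, those called higher were 55.1%. Since the list was chosen with earlier results of these data known, such shares are a description and not a test of the group. The median log2 fold change (resistant over untreated) of the tested members was 1.40, where that of all tested genes was -0.01. In 39 of the 45 (86.7%) both resistant libraries lay above both untreated ones, which held for 34.6% of tested genes. Both resistant libraries lay below in IFIT5 and LGALS3BP (36.3% of tested genes), and the groups overlapped in USP18, EIF2AK2, ADAR and SAMD9. Calls with at least a 2-fold rise numbered 25 among the members and 9.73% of tested genes. RSAD2 and TRIM22 passed the filter on low counts only through the resistant libraries, and of the 43 members at the filter level in both untreated libraries 25 rose. Of the 35 that also shared no reads or exons with another expressed gene 19 rose. Summed over all 49 members, levels were 1168 and 1431 CPM in untreated and 1969 and 2624 CPM in resistant libraries. In bulk RNA, more cells with a raised level and more RNA per cell cannot be told apart. The count depended on untreated replicate 1: without it 15 of 47 tested members (31.9%) were called higher, against 8.99% of all tested genes. Without resistant replicate 1 the members' median log2 fold change was 1.70 and that of all tested genes -0.009, but there the test gave a gene's own spread no weight.

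**Figure D1:**
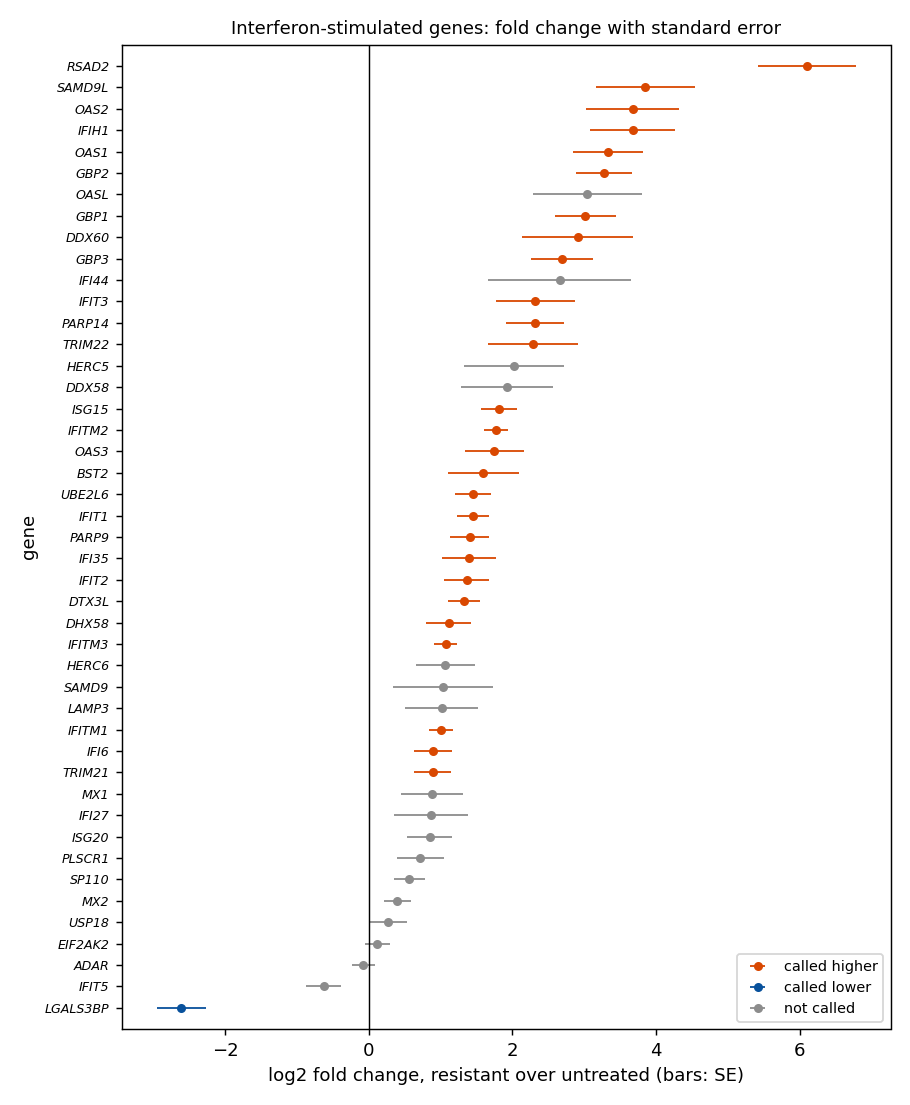
Log2 fold change (x axis, resistant over untreated, bars are SE) of the 45 tested members (y axis, ordered by size), with orange points called higher, blue called lower and grey not called. Values run from -2.61 for LGALS3BP to 6.10 for RSAD2, and 42 of 45 lie above 0.

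The ISG15 system tags proteins with a ubiquitin-like protein. ISG15 itself (ENSG00000187608, chromosome 1) was at 20.4 and 32.9 CPM in untreated and at 80.3 and 107 CPM in resistant libraries (1.81, SE 0.25, adjusted p = 0.00107, where the first number is from here on the log2 fold change, resistant over untreated). UBE2L6, the conjugating enzyme for ISG15, stood at 14.3 and 25.0 CPM and at 53.1 and 54.5 CPM (1.45, SE 0.25, adjusted p = 0.00237). Both rose with no overlap between groups. HERC5, the main ligase for ISG15, had 3.85 and 13.7 CPM in untreated and 25.2 and 46.8 CPM in resistant libraries and did not pass (2.03, SE 0.69, adjusted p = 0.0933). Its groups did not overlap, but its untreated libraries lay further apart than those of most members. HERC5 was called without untreated replicate 2 (log2 fold change 3.20) or resistant replicate 1 (2.43). HERC6, a relative of HERC5, had 3.52 and 6.25 CPM and then 6.59 and 13.98 CPM (1.07, adjusted p = 0.0731). HERC6 was called with DESeq2 (adjusted p = 0.0268) and with no filter (0.00309). It was also called without untreated replicate 2 (log2 fold change 1.522) or resistant replicate 1 (1.525). The fit without resistant replicate 1 gave a gene's own spread no weight. Here and below, the same held for most genes in the fit with no filter. USP18, which removes ISG15 from proteins and damps the interferon receptor, had 8.17 and 10.0 CPM in untreated and 9.25 and 12.6 CPM in resistant libraries (0.26, SE 0.27, adjusted p = 0.478). Part of its reads were shared with other genes, since 3 libraries had fractional counts.

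Members of the IFIT family bind viral RNA and block its translation. IFIT1 (chromosome 10) was at 32.9 and 42.5 CPM in untreated and at 81.1 and 125 CPM in resistant libraries (1.45, SE 0.23, adjusted p = 0.00149). IFIT3, a partner of IFIT1, rose from 10.6 and 19.5 CPM to 44.2 and 106 CPM (2.32, SE 0.55, adjusted p = 0.0371). IFIT2 was at 22.5 and 37.7 CPM and at 59.1 and 96.2 CPM (1.36, SE 0.31, adjusted p = 0.0161). These 3 rose, and resistant replicate 2 was the highest library for each. IFIT5, in the same gene cluster, had lower levels in resistant cells, with 19.6 and 16.1 CPM in untreated and 9.63 and 13.4 CPM in resistant libraries, and did not pass (-0.63, SE 0.24, adjusted p = 0.0683). It was called lower without resistant replicate 2 (adjusted p = 0.0294) and with no filter (0.0474). IFIT3 was not called without untreated replicate 1 or 2 (adjusted p = 0.301 and 0.196) or with RLE scaling (0.0511), nor IFIT2 without untreated replicate 1 (0.0502). IFIT2 shares exons with LIPA, so its value is uncertain.

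The IFITM proteins sit in membranes and hinder virus entry, and IFITM3 had the highest level per length of the members. IFITM3 was at 123 and 126 CPM in untreated and at 253 and 272 CPM in resistant libraries (1.07, SE 0.16, adjusted p = 0.00084). IFITM2 was at 58.6 and 67.6 CPM and at 223 and 209 CPM (1.77, SE 0.17, adjusted p = 4.81e-05). IFITM1 was at 56.8 and 66.4 CPM and at 132 and 114 CPM (1.0, SE 0.16, adjusted p = 0.00146). All 3 rose, and the libraries of a group lay close together. The 3 genes are near copies of each other on chromosome 11, their counts were fractional in all 4 libraries, and the split between them is uncertain. The 15 tested coding genes around them had a median log2 fold change of 0.38, with 5 called higher and 1 lower, and the part of this neighbourhood in the result was not tested.

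The MX proteins are GTPases that trap viral particles. MX2 was at 19.1 and 19.0 CPM in untreated and at 24.8 and 25.4 CPM in resistant libraries (0.40, SE 0.19, adjusted p = 0.127). MX1, widely used as a marker of interferon exposure, was low, with group means of 1.91 and 3.56 CPM (0.88, adjusted p = 0.143). Neither passed, although in both the groups did not overlap. MX1 was called without untreated replicate 2 (1.46, adjusted p = 0.0452).

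The OAS enzymes make oligoadenylates when double-stranded RNA is present. OAS1 (ENSG00000089127, chromosome 12) was at 0.704 and 1.79 CPM in untreated and at 9.21 and 16.9 CPM in resistant libraries (3.33, SE 0.48, adjusted p = 0.00138), or 10.1-fold higher. OAS2 was at 0.758 and 2.06 CPM and at 10.3 and 27.0 CPM (3.68, SE 0.65, adjusted p = 0.00873). OAS3 was at 7.85 and 15.9 CPM and at 28.7 and 51.4 CPM (1.75, SE 0.41, adjusted p = 0.0199). These 3 rose, while OASL, a relative without enzyme activity, just missed the threshold. OASL had 5.55 and 17.0 CPM in untreated and 58.5 and 128 CPM in resistant libraries (3.04, SE 0.76, adjusted p = 0.0542), an 8.25-fold ratio, with replicates of each group more than 2-fold apart. OASL was called with DESeq2 (adjusted p = 0.00404). It was also called without resistant replicate 1 (log2 fold change 3.52), in a fit that gave a gene's own spread no weight. OAS2 was not called without untreated replicate 1 (log2 fold change 3.17).

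RNA sensors detect viral RNA in the cytoplasm. IFIH1 (MDA5, ENSG00000115267, chromosome 2), which binds long double-stranded RNA, was at 1.08 and 2.24 CPM in untreated and at 11.8 and 31.9 CPM in resistant libraries (3.67, SE 0.59, adjusted p = 0.00559), or 12.7-fold higher. DHX58 (LGP2), which modulates IFIH1, was at 7.47 and 13.6 CPM and at 18.1 and 27.4 CPM (1.11, SE 0.32, adjusted p = 0.0246). DDX60, a helicase linked to these sensors, was at 2.09 and 6.71 CPM and at 18.2 and 48.6 CPM (2.91, SE 0.77, adjusted p = 0.0490). These rose with no overlap between groups. DDX58 (RIG-I) had 9.78 and 17.5 CPM in untreated and 25.3 and 78.3 CPM in resistant libraries and did not pass (1.92, SE 0.64, adjusted p = 0.0868). The 2 members of this group with the highest levels, EIF2AK2 and ADAR, did not pass the test. EIF2AK2 (PKR), a kinase that stops translation, had 118 and 124 CPM and then 112 and 150 CPM (0.12, SE 0.18, adjusted p = 0.649). ADAR, which edits double-stranded RNA, had 413 and 407 CPM and then 363 and 412 CPM (-0.08, SE 0.16, adjusted p = 0.735). In both the groups overlapped. Calls ended for IFIH1 without untreated replicate 1 or 2 (adjusted p = 0.107 and 0.0638) and for DHX58 when untreated replicate 1 (0.109) or resistant replicate 2 (0.0828) was left out. DDX60 was called in few settings, and its adjusted p was 0.245 without untreated replicate 1, 0.127 without untreated replicate 2, 0.0529 without resistant replicate 2, 0.0863 with RLE scaling, 0.278 with no filter and 0.0593 with a stricter one. DDX58 was called without resistant replicate 1 (2.54) or resistant replicate 2 (0.89). The fit without resistant replicate 1 gave a gene's own spread no weight.

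**Figure D2:**
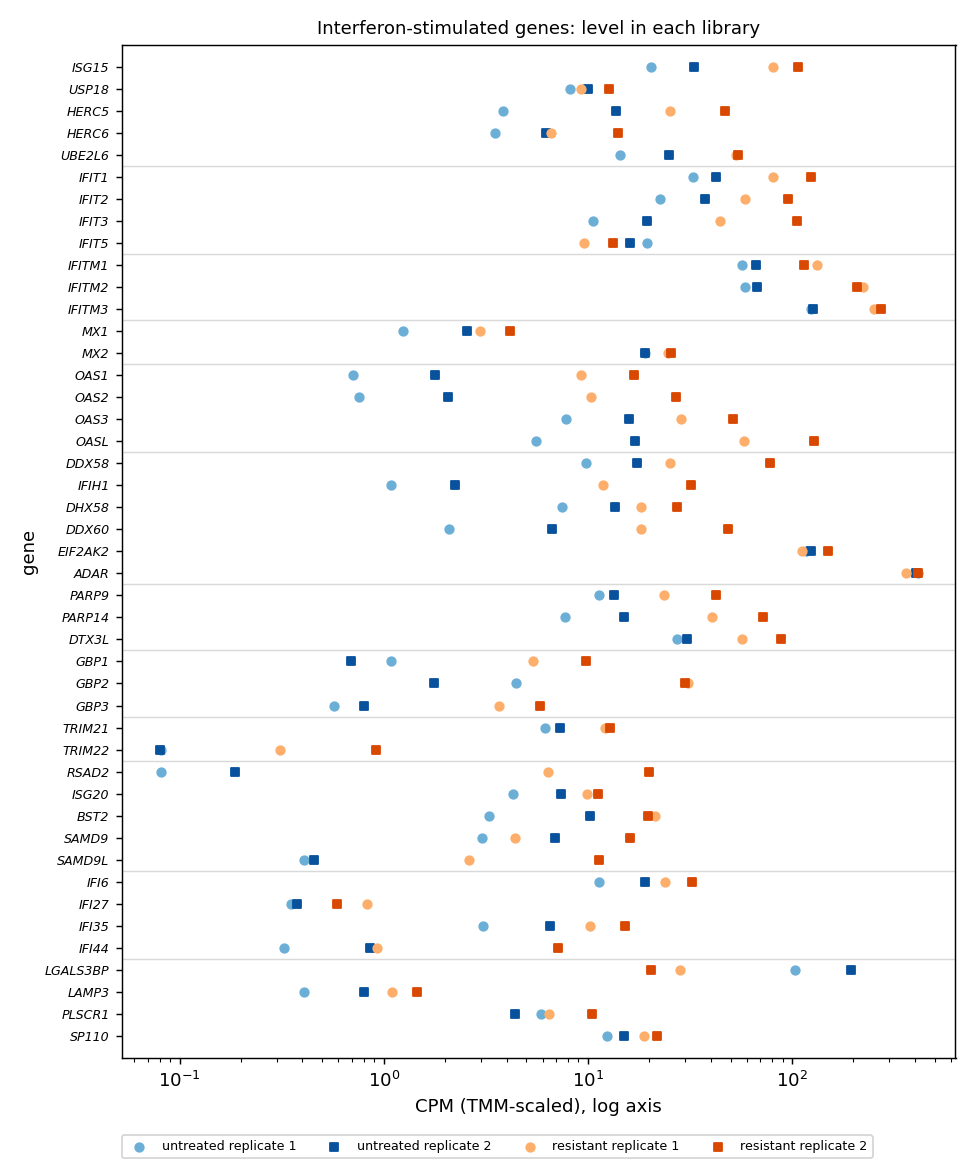
CPM (x axis, log scale) of the 45 tested members (y axis, grouped by role) in each of the 4 libraries, blue for untreated and orange for resistant, circles for replicate 1 and squares for replicate 2. In 39 genes both orange points lie to the right of both blue ones, and the squares lie to the right of the circles in both groups in 33 genes.

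PARP9 and DTX3L form a complex that ADP-ribosylates and ubiquitinates proteins, and PARP14 is a related enzyme encoded beside them on chromosome 3. PARP14 was at 7.74 and 15.0 CPM in untreated and at 40.7 and 72.2 CPM in resistant libraries (2.31, SE 0.40, adjusted p = 0.00737). PARP9 was at 11.4 and 13.5 CPM and at 23.6 and 42.3 CPM (1.40, SE 0.28, adjusted p = 0.00432), and DTX3L at 27.3 and 30.8 CPM and at 56.9 and 88.9 CPM (1.32, SE 0.22, adjusted p = 0.00163). All 3 rose. PARP9 and DTX3L share exon sequence in the annotation, and the split between them is uncertain. The 20 tested coding genes around them had a median log2 fold change of 0.32.

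Guanylate-binding proteins are GTPases that attack vacuoles of pathogens and are strongly induced by interferon gamma. GBP2 (ENSG00000162645, chromosome 1) was at 4.44 and 1.76 CPM in untreated and at 30.98 and 29.99 CPM in resistant libraries (3.27, SE 0.39, adjusted p = 6.82e-04), or 9.67-fold higher. GBP1 was at 1.08 and 0.695 CPM and at 5.38 and 9.77 CPM (3.01, SE 0.42, adjusted p = 6.37e-04), and GBP3 at 0.569 and 0.801 CPM and at 3.66 and 5.80 CPM (2.69, SE 0.43, adjusted p = 0.00128). All 3 rose and were called in every fit that left out 1 library. The 20 tested coding genes around the cluster had a median of -0.20.

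The TRIM ligases rose as well. TRIM21, a receptor for antibodies inside the cell, was at 6.15 and 7.35 CPM in untreated and at 12.2 and 12.8 CPM in resistant libraries (0.89, SE 0.25, adjusted p = 0.0211). TRIM22, an antiviral ligase, had 3 counts in each untreated library and 9 and 31 in the resistant ones (2.29, SE 0.63, adjusted p = 0.0181), under 1 CPM throughout. TRIM22 reached the filter level in the resistant libraries alone, so its being tested already needed a higher level there. Calls ended for TRIM21 when untreated replicate 1 (adjusted p = 0.114) or resistant replicate 2 (0.065) was left out. They ended for TRIM22 with DESeq2 (0.0785) and without untreated replicate 1, untreated replicate 2 or resistant replicate 2 (0.119, 0.0919 and 0.251). Around TRIM21 and TRIM22 on chromosome 11, 10 and 12 of 20 tested coding genes were called higher (medians 0.76 and 0.77), and the part of this neighbourhood in their rise was not tested.

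Among enzymes and factors that restrict viruses, RSAD2 had the largest rise of all members. RSAD2 (viperin, ENSG00000134321, chromosome 2), an enzyme that makes a chain-terminating nucleotide, had 3 and 7 counts in the untreated libraries and 185 and 672 in the resistant ones, or 0.0812, 0.187, 6.38 and 19.9 CPM. It rose by 6.10 on the log2 scale (SE 0.68, adjusted p = 6.37e-04), a fitted 68.6-fold. RSAD2 reached the filter level in the resistant libraries alone, so its being tested already needed a higher level there. CMPK2, a nucleotide kinase encoded next to RSAD2, had 3 and 5 counts in the untreated libraries and 5 and 45 in the resistant ones, too few to test. The annotation has exons shared by RSAD2 and CMPK2, so reads between them are uncertain. SAMD9L, an antiviral growth suppressor, was at 0.406 and 0.454 CPM and at 2.62 and 11.3 CPM (3.85, SE 0.69, adjusted p = 0.00468). Its relative SAMD9 had 3.03 and 6.92 CPM in untreated and 4.38 and 16.0 CPM in resistant libraries, with overlapping groups (1.03, SE 0.69, adjusted p = 0.310). SAMD9 was called with no filter (adjusted p = 0.0187), a fit that for most genes gave a gene's own spread no weight. It was also called without resistant replicate 1 (log2 fold change 1.70), in a fit that gave a gene's own spread no weight. BST2 (tetherin), which holds budding virus at the membrane, was at 3.28 and 10.3 CPM and at 21.4 and 19.7 CPM (1.59, SE 0.49, adjusted p = 0.0494). ISG20, a nuclease, had 4.31 and 7.43 CPM and then 9.90 and 11.3 CPM, and did not pass (0.84, SE 0.31, adjusted p = 0.0581). It was called with RLE scaling (adjusted p = 0.0443), with DESeq2 (0.0355) and with no filter (0.0206) or a stricter one (0.0454). ISG20 was also called without untreated replicate 2 (log2 fold change 1.275) or resistant replicate 1 (0.952), the latter in the fit with no weight on a gene's own spread. Calls ended without untreated replicate 1 for RSAD2 (5.76, adjusted p = 0.0525), without untreated replicate 1 or 2 for SAMD9L (0.160 and 0.138) and without resistant replicate 2 for BST2 (0.140).

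Of the IFI genes, IFI6, a mitochondrial and reticulum protein, was at 11.3 and 19.0 CPM in untreated and at 24.0 and 32.5 CPM in resistant libraries (0.89, SE 0.27, adjusted p = 0.0284). IFI35 was at 3.06 and 6.54 CPM and at 10.2 and 15.3 CPM (1.40, SE 0.38, adjusted p = 0.0189). Both rose, and neither was called without untreated replicate 1 (adjusted p = 0.151 and 0.0774) or resistant replicate 2 (0.0968 and 0.0564). IFI44 and IFI27 were low and did not pass (2.66, adjusted p = 0.0943, and 0.86, adjusted p = 0.221). IFI44 had 0.932 CPM in resistant replicate 1 and 7.11 CPM in replicate 2, against 0.325 and 0.855 CPM in the untreated ones. It was called with DESeq2 (adjusted p = 0.00194) and with no filter (4.69e-06), the latter a fit that for most genes gave a gene's own spread no weight. IFI44 was also called without resistant replicate 1 (log2 fold change 3.49), in a fit that gave a gene's own spread no weight. IFI44L, often among the strongest interferon responses in blood cells, had 2 counts in untreated replicate 1 and 0 in the other libraries. XAF1, a factor that promotes cell death, had 3, 5, 4 and 18 counts, and EPSTI1 had 1, 2, 4 and 2 counts, in untreated replicates 1 and 2 and resistant replicates 1 and 2. These were not tested, so the list holds members with next to no reads in either group beside its risers.

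The remaining members included the only call in the other direction. LGALS3BP, a secreted glycoprotein that binds galectins (ENSG00000108679, chromosome 17), was at 103 and 195 CPM in untreated and at 28.4 and 20.3 CPM in resistant libraries. It fell by 2.61 on the log2 scale (SE 0.34, adjusted p = 0.00218), and it was called in all 4 fits that left out 1 library. SP110, a nuclear body protein, had 12.4 and 15.0 CPM and then 18.9 and 21.7 CPM, and did not pass (0.56, SE 0.21, adjusted p = 0.0652). PLSCR1, a membrane scramblase (0.72, adjusted p = 0.117), and LAMP3, a lysosomal protein (1.01, adjusted p = 0.151), had group means of at most 8.46 CPM and did not pass. SP110 was called with the stricter filter (adjusted p = 0.0486). PLSCR1 was called without resistant replicate 1 (log2 fold change 1.04), in a fit that gave a gene's own spread no weight.

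Members also differed between the libraries of a group. In 33 of the 45 tested members (73.3%) replicate 2 was the higher library in both groups, which was so for 25.6% of all tested genes. Between the resistant libraries 12 of the 45 were at least 2-fold apart, all 12 higher in replicate 2, and 6.12% of tested genes were that far apart in either direction. Between the untreated libraries 11 were, 10 of them higher in replicate 2, against 6.17% of tested genes. The median log2 ratio of replicate 1 to replicate 2 was -0.62 over the members in resistant and -0.74 in untreated libraries, and -0.01 and 0 over all tested genes. These ratios compare single libraries (0.1 CPM was added to each level), and neither they nor their cause were tested. The gaps were wide for IFI44, SAMD9L, SAMD9, RSAD2 and DDX58 in the resistant group and for HERC5, DDX60, BST2 and OASL in the untreated one. The IFITM genes, MX2, ADAR and TRIM21 lay close together within both groups. The 14 members called higher in every fit without 1 library were ISG15, UBE2L6, IFIT1, IFITM1, IFITM2, IFITM3, OAS1, OAS3, PARP9, PARP14, DTX3L, GBP1, GBP2 and GBP3.

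**Figure D3:**
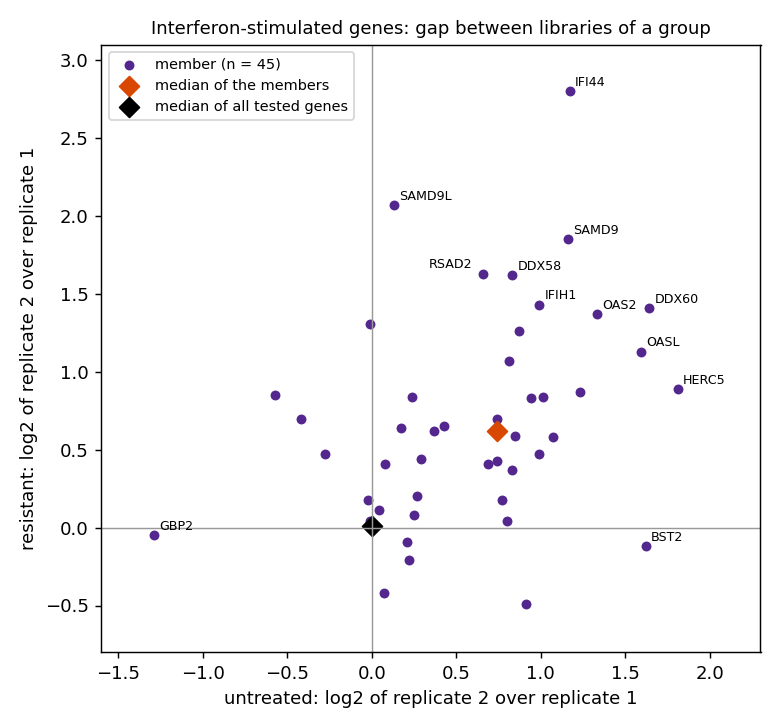
Log2 ratio of replicate 2 to replicate 1 of each tested member in the untreated (x axis) and resistant (y axis) group, with diamonds for the medians of the members and of all tested genes. Most members lie above 0 on both axes, 33 of 45, and the median of all tested genes lies at or near 0 on both.

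Compared per kilobase of annotated exon (CPM divided by exon length, approximate because the annotation is of another build), untreated cells had their highest levels in IFITM3 (92.5), IFITM1 (57.1), ADAR (42.3), LGALS3BP (41.7) and IFITM2 (41.0). In resistant cells the order was IFITM3 (194), IFITM2 (140), IFITM1 (114), ISG15 (99.6) and ADAR (40.0). The members with the largest fold changes had been low: SAMD9L, OAS2, IFIH1 and OAS1 were all under 0.4 on this scale in untreated cells. RSAD2 was lower still (0.0278), but it was tested only through its level in the resistant libraries. The untreated level is also the divisor of the fold change, so a low start among the largest ratios is partly built in. A low level did not by itself go with a large rise. MX1 (0.221), LAMP3 (0.158) and IFI27 (0.0875) were also low there and were not called (log2 fold changes 0.88, 1.01 and 0.86).

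The pathway upstream was covered by a second list. Of 55 genes for interferons, receptors, signal transducers, nucleic acid sensing and negative regulation, 54 matched an ID and 30 were tested, of which 9 (30%) rose, 4 fell and 17 did not pass, where 16.6% of all tested genes were called higher and 17.4% lower. The median log2 fold change was 0.36. Fewer of them were called without untreated replicate 1, as was so over all tested genes. Of 22 interferon genes 19, with IFNB1 and all 13 alpha genes listed, had 0 counts in all 4 libraries. IFNL1, a type III interferon, was the only ligand with enough counts to test and is named after its values were seen. It reached the filter level in the resistant libraries alone, so its passing the filter already needed a higher level there. Its counts were 2 and 2 in the untreated libraries and 12 and 18 in the resistant ones, 0.0542, 0.0534, 0.414 and 0.533 CPM (2.25, SE 0.56, adjusted p = 0.0116). DESeq2 did not call IFNL1 (adjusted p = 0.0964), and neither did the fits without untreated replicate 1 or 2 or resistant replicate 2 (0.121, 0.0972 and 0.0748). IFNL3 was at 0 counts in the untreated libraries and at 1 and 3 in the resistant ones, and IFNL2 had 1 and 1 and then 0.

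Receptors split. IFNAR1, a chain of the type I receptor, was at 88.6 and 78.3 CPM in untreated and at 50.5 and 59.8 CPM in resistant libraries (-0.60, SE 0.16, adjusted p = 0.0177), and it fell. IFNAR2, the other chain, had 22.5 and 31.4 CPM and then 21.6 and 24.5 CPM (-0.22, adjusted p = 0.4502). Both chains of the type III receptor rose. Counts of IL10RB, and of IFNAR2 above, were fractional in the untreated libraries alone, so part of their reads were shared with other genes. IFNLR1 was at 0.975 and 1.58 CPM and at 3.21 and 2.96 CPM (1.24, SE 0.41, adjusted p = 0.0408), and IL10RB at 24.3 and 30.9 CPM and at 43.9 and 44.9 CPM (0.68, SE 0.18, adjusted p = 0.0157). Calls ended for IFNAR1 when untreated replicate 1 (adjusted p = 0.130) or resistant replicate 1 (0.141) was left out and for IL10RB without untreated replicate 1 (0.116). They ended for IFNLR1 without untreated replicate 1, resistant replicate 1 or resistant replicate 2 (0.212, 0.0946 and 0.0771).

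Among transducers JAK1, the kinase used by all interferon receptors, was at 76.1 and 86.5 CPM in untreated and at 136 and 152 CPM in resistant libraries (0.82, SE 0.16, adjusted p = 0.00335). IRF1, a factor induced by interferon gamma, was at 12.6 and 16.8 CPM and at 33.8 and 43.1 CPM (1.38, SE 0.22, adjusted p = 0.00116). Both rose, each with some uncertainty from an exon shared with another expressed gene. STAT2 had 29.1 and 42.4 CPM and then 49.9 and 54.1 CPM and did not pass (0.54, SE 0.20, adjusted p = 0.0585). DESeq2 called it (adjusted p = 0.0449), as did RLE scaling (0.0457), no filter (0.0198) and a stricter one (0.0424). STAT2 was also called without untreated replicate 2 or resistant replicate 1, the latter in a fit that gave a gene's own spread no weight. IRF9 had 11.1 and 15.0 CPM and then 14.9 and 15.2 CPM (0.20, adjusted p = 0.5502). Its counts were fractional in all 4 libraries, and it shares an exon with another expressed gene. IRF7, which amplifies interferon production, had 2 and 1 counts in untreated libraries and 1 and 0 in resistant ones.

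Of the sensing genes STING1, the adaptor of DNA sensing, was at 3.87 and 6.81 CPM in untreated and at 13.01 and 20.04 CPM in resistant libraries (1.62, SE 0.33, adjusted p = 0.00486). CGAS, the DNA sensor that signals through STING1, moved the other way, from 28.9 and 23.2 CPM to 18.4 and 13.6 CPM (-0.70, SE 0.22, adjusted p = 0.0320). The call of CGAS ended when untreated replicate 1 (adjusted p = 0.229) or resistant replicate 2 (0.147) was left out. Of the negative regulators SOCS1, which inhibits JAK kinases, rose from 1.22 and 2.16 CPM to 4.59 and 3.40 CPM (1.21, SE 0.41, adjusted p = 0.0429). SOCS3, which acts mainly on receptors of the IL6 family, fell from 17.4 and 25.0 CPM to 7.66 and 11.8 CPM (-1.12, SE 0.28, adjusted p = 0.0112). TRIM25, listed with these regulators but known as a ligase that activates DDX58, fell from 129 and 137 CPM to 92.1 and 102 CPM (-0.45, SE 0.15, adjusted p = 0.0436). SOCS1 lost its call when untreated replicate 1 (0.229) or resistant replicate 1 (0.146) was left out, SOCS3 without untreated replicate 2 (0.0627), and TRIM25 in any fit without 1 library (0.0658 to 0.291), with RLE scaling (0.0567), with no filter (0.0545) or with a stricter one (0.0535).

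**Figure D4:**
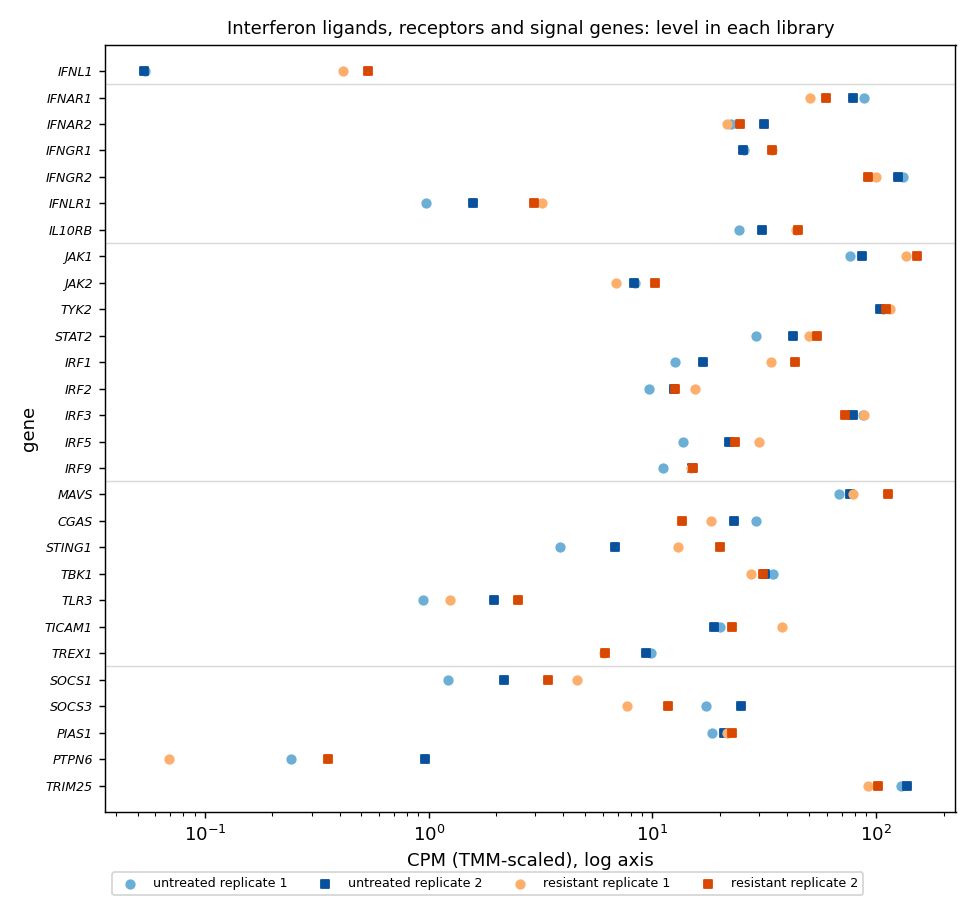
CPM (x axis, log scale) of tested interferon ligand, receptor and signal genes that are reported here (y axis, grouped by role) in each of the 4 libraries, with colours and symbols for group and replicate. STING1, IRF1 and JAK1 have both resistant points to the right of the untreated ones, and CGAS, SOCS3 and IFNAR1 to the left.

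The members lay on many chromosomes, and their neighbours gave a local reference. For each member the nearest 10 tested coding genes on either side in gene order, members left out, were taken. Around the IFIT cluster on chromosome 10 their median log2 fold change was -0.16, around IFIH1 -0.31, around RSAD2 -0.18 and around ISG15 0.05, while these members stood at 1.36 or above (IFIT5 at -0.63). Around OAS1, OAS2 and OAS3 on chromosome 12 it was 0.36, with 8 of 20 neighbours called higher and 0 lower, and around SAMD9 and SAMD9L on chromosome 7 it was 0.45, with 9 of 20 called higher. The rises of OAS1, OAS2, OAS3 and SAMD9L lay between 1.75 and 3.85, above these local medians, and SAMD9 (1.03) was not called. Closer to their neighbours were TRIM21 (0.89, neighbours 0.76) and some members that were not called. These were PLSCR1 (0.72, neighbours 0.31), MX2 (0.40, neighbours 0.03), USP18 (0.26, neighbours 0.36) and EIF2AK2 (0.12, neighbours -0.02). ADAR (-0.08, not called) lay close to its local median too. The part of any neighbourhood in the members' changes was not tested.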

How the data were processed

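Polyadenylated RNA was sequenced from 4 libraries, 2 of untreated and 2 of AMG510-resistant MIA-PaCa2 cells. Per the file headers, the deposited values are unscaled expected counts of each gene. Per the submitters' processing notes, STAR 2.7.2b, RSEM 1.3.1 and GRCh37 were used, and the role of each tool, the annotation and the strand setting are not given in the sources used here. Expected counts were rounded to whole numbers, filtered with edgeR's filterByExpr, scaled by TMM factors (0.962 to 1.05) and tested in edgeR 4.0.16 (R 4.3.3) by the quasi-likelihood F-test, robust option on, adjusted by the Benjamini-Hochberg method over 16090 tested genes, with a call at an adjusted p below 0.05. SEs were derived from the log2 fold change and the root of F. DESeq2 1.42.0 was an alternative. Symbols came from the gene name table (39538 of 57773 IDs named). GENCODE 29, of another build, gave gene order, exon overlap and exon length only. The promoters are RefSeq sequences of GRCh38.p14, matched by symbol.

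The members and lists were chosen with earlier results of these data known. Values per library are printed for called members with at least 1 CPM in the higher group mean and for members not called with at least 10 CPM there. Values outside this rule (IFI44, TRIM22, the members not tested, IFNL1, IFNL2, IFNL3 and IRF7) are printed after they were seen. Counts were simulated for this resistant against untreated design (15849 genes tested, 200 changed). Calls were made there for 4% of the 1.5-fold changes, 46% of the 2-fold, 98% of the 4-fold and 100% of the 8-fold ones. Of the 129 calls made there, 5 were unchanged genes. Every simulated gene had the same spread (a biological coefficient of variation of 19.6%), and only 200 changed. In the data the spread differed between genes and 34% of tested genes were called, so the simulated rates need not hold for them. In the data, 32 tested members were at least 2-fold higher, and 25 of these were called. Those not called included OASL (8.25-fold), IFI44 (6.31-fold) and HERC5 (4.07-fold). Whether the simulated percentages hold for the members was not tested. Alternatives were RLE scaling, no filter, a filter of 1 CPM in 2 libraries, DESeq2, a replicate block, a threshold of 0.01 and each library left out in turn. Restricting the members to those expressed in untreated libraries, or to those without shared reads, was chosen after seeing the data, as was counting matches by gene or in any listed promoter. Limits from a count of 0, at 3 counts, cover counting error only. Some genes of the lists are counted but not reported by name here.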

Additional observations from a re-analysis of the deposited data

How the results depend on the processing

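The members' median log2 fold change was 1.40, and it lay between 1.07 and 1.77 over the alternatives run. Of the 27 members called higher, 25 remained with RLE scaling, 26 with no filter, 25 with 1 CPM in 2 libraries and 26 with DESeq2. Leaving out 1 library at a time gave 15 to 36 members called higher, 1 to 2 called lower, 2832 to 5041 calls over all tested genes, and 4 to 9 signal genes called higher and 1 to 2 called lower. The lowest of these counts for members and for all genes came without untreated replicate 1. Without resistant replicate 1, and for most genes with no filter, edgeR's test gave a gene's own spread no weight, so the 36 calls there rest on the spread across genes. The library alone in its group is assumed to vary like the others. With no filter 2 members were called lower, the added one being IFIT5. At an adjusted p below 0.01, 17 members were higher and 1 lower, 4 signal genes were higher and 0 lower (4 at an adjusted p below 0.05), and 2832 of all tested genes were called. Over the fits without 1 library, the log2 fold change ran from -0.107 to 0.323 for EIF2AK2, from -0.176 to 0.025 for ADAR, from -0.182 to 1.723 for SAMD9, from -0.418 to 0.025 for IFNAR2, from -0.265 to 0.318 for JAK2, from -0.176 to 0.085 for IRF3 and from -0.214 to 0.939 for TLR3. None of these was called with all 4 libraries. The titles give both groups replicate numbers 1 and 2, but nothing ties equal numbers to a shared culture, and the deviations of same-numbered libraries had a correlation of -0.06 across 16090 genes. With the replicate block 33 members were called higher and 1 lower, among them all 27, and 5275 genes in all. The members added by the block were HERC5 (adjusted p = 0.000546), HERC6 (0.0214), OASL (4.26e-06), DDX58 (0.000786), ISG20 (0.0406) and IFI44 (0.008). Of the named signal genes STAT2 was called with it (0.0392) and SOCS1 was not (0.0527). Members with few counts, such as TRIM22, are limited by depth.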

Other observations

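Outside the list, 391 other tested genes had the core of the response element in at least 1 of their listed promoters. Of these 81 (20.7%) were called higher in resistant libraries, against 16.6% of all tested genes, and their median log2 fold change was 0.02. With the first listed promoter of each gene alone, as taken for the members, these were 55 of 273 genes (20.1%) with a median of 0.01. Inside the list 15 of 25 tested members with the core and 6 of 10 without it were called higher. The difference between these shares was not tested.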
